A study of Rattus norvegicus with 54 samples.

Results

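The border zone and the remote zone of untreated MI hearts were compared within animals. All libraries whose title names an untreated MI heart and either zone were taken, which gave 12 of the 54 libraries of the series, 6 border zone and 6 remote zone libraries of 6 hearts. The animals were female athymic nude rats (F344/NJcl-rnu/rnu) that were operated on at 8 weeks of age and sampled at week 1 after surgery. MI was made by permanent ligation of the left anterior descending (LAD) coronary artery without further treatment, and sham animals, of which 6 border and 6 remote libraries serve as the control for position, underwent surgery without the ligation. According to the study's methods, left ventricular tissue below the ligation stitch was divided into the anterior wall as infarct zone, the lateral wall as border zone and the ventricular septum as remote zone, so that zone and anatomical position cannot be told apart within MI hearts alone. The strain lacks a functional thymus, which limits it as a model of the T cell response, and the titles number 6 hearts per group while a label calls the same numbers technical replicates. If that label is right, the p-values measure only the spread between these libraries.

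After coronary occlusion, the muscle next to the infarct remains perfused but lies beside necrotic tissue that is being cleared by phagocytes and replaced by scar. Border zone cardiomyocytes are known for turning down genes of contraction and oxidative metabolism and for re-expressing genes of the fetal heart, such as those of the natriuretic peptides and skeletal alpha-actin, while fibroblasts around them become matrix-secreting myofibroblasts. The remote myocardium keeps its architecture but carries a higher load.

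The counts on genes ranged from 16427859 to 20218625 in the 6 border zone libraries and from 12963330 to 17049549 in the 6 remote zone libraries. Several points about the libraries bear on every comparison and are given first.

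The border zone libraries of hearts 2 and 3 stood apart from the others. On the first principal component, which held 48.2% of the variance of the 12 libraries, they scored 46.2 and 41.7, whereas the other border zone libraries scored −4.28 to 7.18 and the remote zone libraries −35 to −4.35. The summed level of 5 cardiomyocyte markers (Myh6, Tnnt2, Tnni3, Actc1 and Ryr2) was 2440 and 3370 CPM (counts scaled to a fixed library total) in these libraries, against 11800 to 16300 CPM in the other 4 border zone libraries and 17400 to 29200 CPM in the remote zone. Genes whose zones differed by over 1 on the log2 scale numbered 5575 in heart 2 and 4520 in heart 3, and 798 to 2222 in the other hearts. In heart 5, on the other hand, both zones had nearly the same score on the first component (−4.28 and −4.35). For most named genes whose fitted zone difference moved by over 1.5 times without hearts 2 and 3, the value without them is given where the difference is described.

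Markers of other tissues were also unevenly distributed. The border zone library of heart 3 held 114 CPM of the lung genes Sftpb, Sftpc and Scgb1a1, against at most 5.91 CPM in the other 11 libraries. The atrial genes Myl7, Myl4 and Sln summed to 168 CPM in the remote zone of heart 1 and to 57.1 CPM in that of heart 5, against 7.74 to 28.6 CPM in the other 10 libraries. Among sham hearts, both libraries of heart 5 held T cell markers (Cd3d, Cd3e and Cd3g, 264 CPM at the border and 169 CPM at the remote position, at most 6.82 CPM in the other sham libraries) and less of the cardiomyocyte markers than the other sham libraries. The part of these markers in the results was not tested.

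The share of counts that fell on no annotated gene also moved with the zone. It was 18.6% ± 3.54 (SD, n = 6) in the border zone and 31.2% ± 4.11 (SD, n = 6) in the remote zone. It was lower at the border in 6 of 6 hearts, by 12.5 percentage points on average (exact sign-flip permutation test, 2-sided, p = 0.0312, which is the smallest that 6 hearts allow). At the same positions of sham hearts, the shares were 28.2% ± 5.04 and 29.4% ± 4.86 (SD, n = 6 each), a difference of −1.2 percentage points (exact sign-flip permutation test, p = 0.312). Its part in the differences between genes was not tested.

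**Figure D1:**
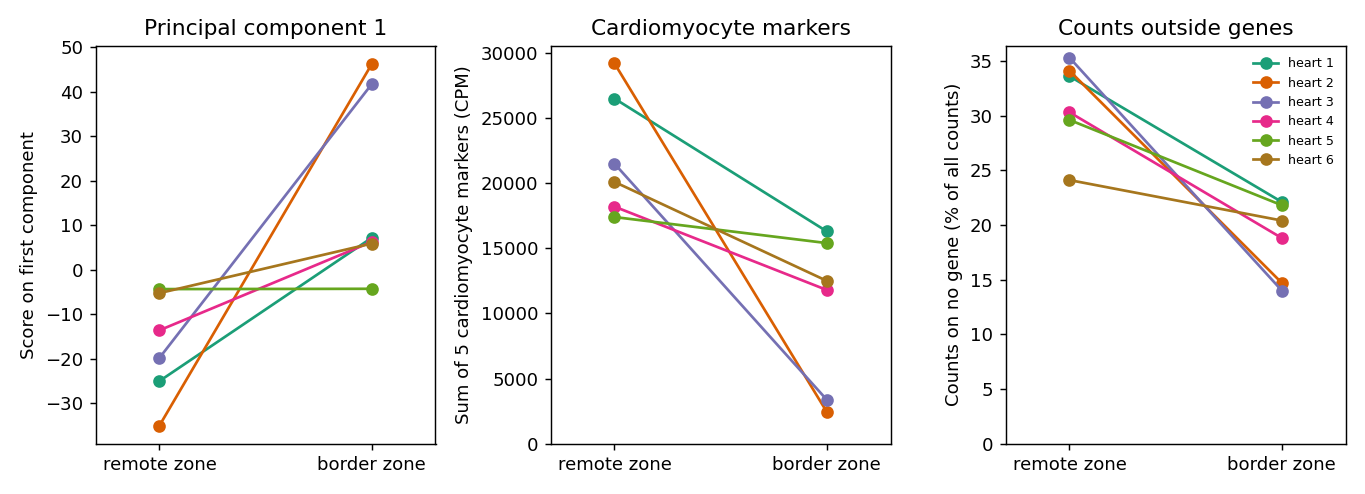
Each line joins the remote and the border zone library of an untreated MI heart. The left panel shows the score on the first principal component, the middle panel the summed CPM of 5 cardiomyocyte markers and the right panel the percentage of counts on no gene. Hearts 2 and 3 reach 46.2 and 41.7 on the component and fall to 2440 and 3370 CPM of markers at the border, and the no-gene share is lower at the border in all 6 hearts.

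No gene passed an adjusted p of 0.05 between the zones of untreated MI hearts when the heart was kept as a block (edgeR's quasi-likelihood test with Benjamini-Hochberg adjustment, 15738 genes tested, 0%, lowest adjusted p = 0.0751). At an unadjusted p under 0.05, 3021 genes (19.2%) were higher and 2922 (18.6%) lower in the border zone. Without the block, edgeR called 1901 genes higher (12.1%) and 1508 lower (9.58%). DESeq2 with the block called 2272 higher (14.4%) and 2379 lower (15.1%), and a fit over all 54 libraries, which borrows the spread of the other groups, called 3095 higher (17.4%) and 2398 lower (13.5%). In 6 of 6 hearts, 1917 genes (12.2%) were higher and 1887 (12%) lower in the border zone, and 462 (2.94%) lay above and 561 (3.56%) below every remote zone library. These shares of all genes are the background to every list count given below. The median difference over all genes was 0.03 on the log2 scale. In the following, differences are the fitted log2 border minus remote values with their standard error (SE), each gene was measured in 6 hearts, and since none passed the test with the block, they are given as levels and differences. The adjusted p-values printed are those of edgeR with the block.

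Genes of the contractile apparatus were lower in the border zone. All 20 sarcomere genes tested had negative differences (−1.73 to −0.73, median −1.27), 10 of them were lower in 6 of 6 hearts and 9 lay below every remote zone library. Actc1, cardiac alpha-actin of the thin filament, was measured at 603 to 3750 CPM in the border zone (median 3220) and at 4780 to 9660 CPM in the remote zone (median 7030). The zones did not overlap, and the difference was −1.73 (SE 0.53, adjusted p = 0.0762). Myh6, the fast myosin heavy chain that is the main motor of the adult rodent ventricle, ranged from 263 to 2050 CPM (median 1630) at the border and from 2220 to 6910 CPM (median 3500) in the remote zone, with a difference of −1.71 (SE 0.63, adjusted p = 0.0968). Actn2, the alpha-actinin that anchors thin filaments at the Z-disc, was 3.21-fold lower (median 477 against 997 CPM, adjusted p = 0.0756). In each of these genes, the lowest values were those of hearts 2 and 3.

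The size of the sarcomere difference depended on the heart. The median over the list was −3.27 in heart 2 and −2.57 in heart 3, −0.87, −0.71 and −0.64 in hearts 1, 4 and 6, and −0.01 in heart 5. Without hearts 2 and 3, the fitted median was −0.56, and Actc1, Myh6, Actn2 and Ttn differed by −0.91, −0.75, −0.87 and −0.69. The giant filament Ttn (difference −1.46) and the thin filament regulator Tnni3 (−0.85) were lower in 5 of 6 hearts, the exception being heart 5, and Tnni3 differed by −0.10 without hearts 2 and 3. As the tissue was sequenced in bulk, fewer cardiomyocytes and less RNA per cardiomyocyte cannot be told apart for any of these genes.

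**Figure D2:**
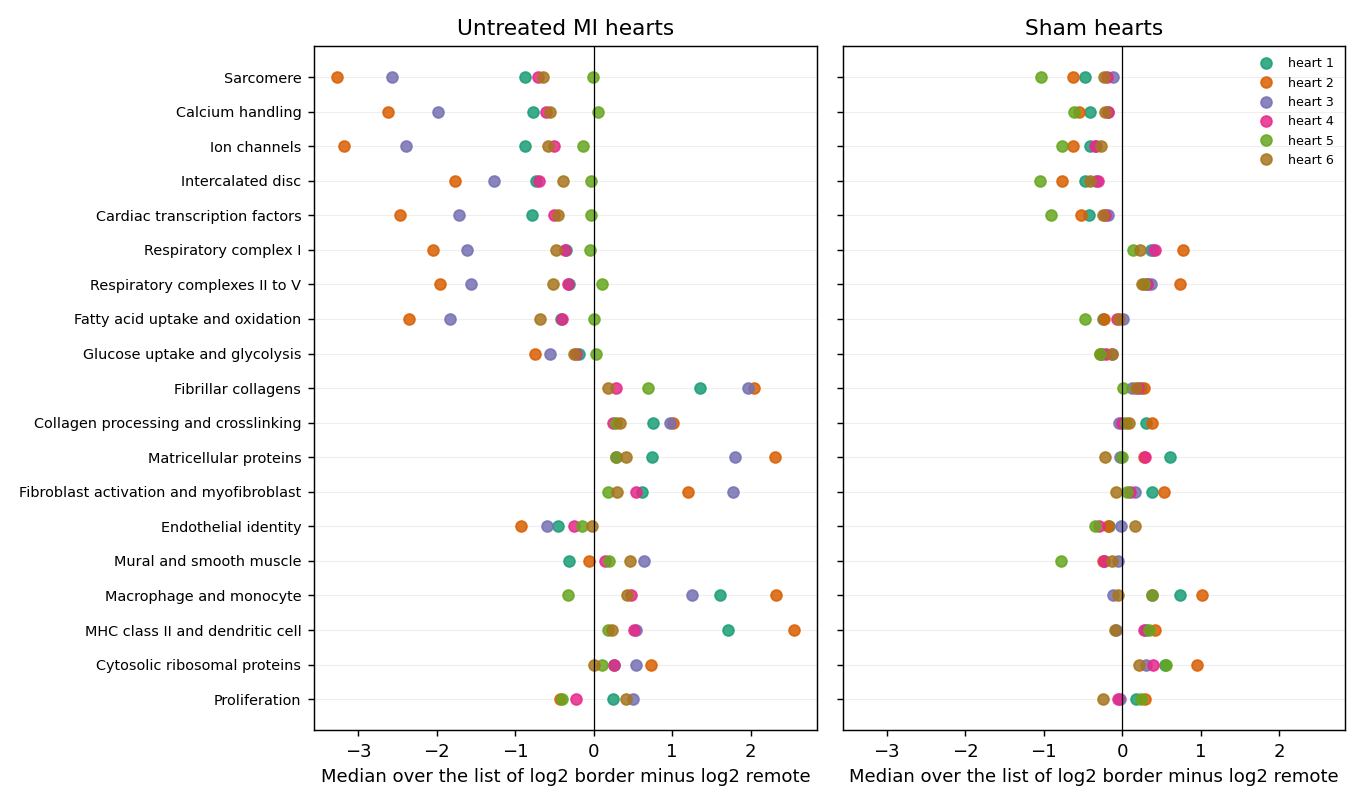
Each point is 1 heart and shows the median over the genes of a list of the within-heart difference, log2 border minus log2 remote CPM, for 6 untreated MI hearts on the left and 6 sham hearts on the right. Sarcomere medians run from −3.27 to −0.01 in MI hearts, and the respiratory lists are above 0 in every sham heart and below 0 in 5 or 6 of the 6 MI hearts.

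The fetal and stress genes differed unequally. The median over the 19 genes tested was −0.53, 8 were lower and 1 higher at an unadjusted p under 0.05, and 3 were lower and 0 higher in 6 of 6 hearts. The list median within hearts was −1.68 to −0.12 in 5 hearts and 0.14 in heart 5. Nppa, which encodes atrial natriuretic peptide, was measured at 1240 to 12200 CPM (median 4870) in the border zone and at 1520 to 11900 CPM (median 3690) in the remote zone. The groups overlapped, 3 hearts were higher and 3 lower, and the difference was 0.08 (SE 0.27, adjusted p = 0.853). Nppb, which encodes B-type natriuretic peptide, lay between 189 and 1160 CPM (median 516) at the border and between 328 and 1050 CPM (median 700) in the remote zone, with a difference of −0.50 (SE 0.28, adjusted p = 0.22), and it was lower in 4 of 6 hearts. Between the sham positions, where the medians were 927 CPM at the border and 665 CPM at the remote position, Nppa rose by 0.49 on the log2 scale.

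Acta1, skeletal alpha-actin of the fetal program, was lower in the border zone of 6 of 6 hearts, at 76.2 to 506 CPM (median 246) against 246 to 979 CPM (median 464). Its difference of −1.05 (SE 0.26, adjusted p = 0.0751) stood beside one of −0.68 between the same positions of sham hearts. Xirp1, an actin-binding protein of the intercalated disc, differed by −1.49 and did not overlap between zones (14.7 to 83.8 against 94.5 to 159 CPM), with −0.79 when hearts 2 and 3 were left out. Ankrd1, a nuclear and sarcomeric stretch-responsive protein, differed by −0.40 (adjusted p = 0.328) and was lower in 5 of 6 hearts, and the slow myosin Myh7 (−0.94) and Csrp3, a muscle LIM protein of the Z-disc (−0.96), were lower in 5 of 6 hearts with heart 5 as the exception. Between sham positions, Xirp1 differed by −0.87 and Myh7 by −0.81, but Ankrd1 by −0.05 and Csrp3 by 0.04. The MI minus sham difference was −0.13 for Myh7. For Xirp1 it was −0.60, and 0.09 without MI hearts 2 and 3.

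Promoters of Nppb, Acta1 and Postn, 3 of the 4 genes that were looked up, are shown because Nppb and Acta1 are stress genes of the cardiomyocyte with known GATA and TEAD elements and the last is a matrix gene that differed in the opposite direction. Each run is the 250 bases before the RefSeq start of the gene on its own strand, from the GRCr8 assembly, which is not the build of the counts, so the coordinates belong to GRCr8 only: chr5:163699758-163700007 on the plus strand for Nppb, chr19:68784195-68784444 on the minus strand for Acta1 and chr2:140677811-140678060 on the plus strand for Postn. Capitals mark matches on either strand. The letters searched were GATAA for GATA factors. For TEAD factors they were CATTCC, the core of their element. For AP-1 they were TGANTCA, with any base at N.
Nppb: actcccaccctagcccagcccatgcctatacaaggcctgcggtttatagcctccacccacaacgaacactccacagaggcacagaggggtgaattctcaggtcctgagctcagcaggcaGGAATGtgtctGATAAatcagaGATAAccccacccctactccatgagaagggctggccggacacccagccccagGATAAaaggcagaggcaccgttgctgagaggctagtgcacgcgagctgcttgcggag
Acta1: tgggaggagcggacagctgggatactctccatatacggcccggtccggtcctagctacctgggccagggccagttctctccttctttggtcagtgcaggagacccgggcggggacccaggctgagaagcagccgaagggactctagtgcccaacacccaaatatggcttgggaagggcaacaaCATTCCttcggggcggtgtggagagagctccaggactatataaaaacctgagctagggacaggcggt
Postn: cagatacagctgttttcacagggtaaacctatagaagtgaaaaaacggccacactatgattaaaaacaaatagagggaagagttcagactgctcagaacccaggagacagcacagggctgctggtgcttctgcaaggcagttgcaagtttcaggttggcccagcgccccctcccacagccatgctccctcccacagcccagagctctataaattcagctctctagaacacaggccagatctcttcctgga

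The Nppb promoter held 3 GATA matches and 1 TEAD match, that of Acta1 held 1 TEAD match, and that of Postn held none of the 3 motifs in this window. Among 33469 promoters of the same length, 23.5% held the GATA letters, 12.1% the TEAD letters and 6.34% the AP-1 letters. These matches describe the sequence and do not show binding.

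Excitation and conduction genes followed the sarcomere. Of 15 calcium handling genes tested, 6 were lower and 2 higher in 6 of 6 hearts (median −0.96, sham −0.40, or −0.47 in MI hearts without hearts 2 and 3). Atp2a2, the SERCA2 pump that returns calcium to the sarcoplasmic reticulum, was at 541 to 2950 CPM (median 2280) in the border zone and at 3270 to 6580 CPM (median 4130) in the remote zone. No border zone library reached the remote range, and the difference was −1.45 (SE 0.50, adjusted p = 0.0852), or −0.66 without hearts 2 and 3. The ryanodine receptor Ryr2 (−1.41) and the SERCA2 inhibitor Pln (−1.40) were lower in 5 of 6 hearts, with −0.64 and −0.58 when hearts 2 and 3 were left out. Between sham positions, Atp2a2 differed by −0.67, Ryr2 by −0.71 and Pln by −0.10. Fkbp1b, a small protein that binds the ryanodine receptor, went the other way. It was higher in 6 of 6 hearts, at 3.24 to 6.82 CPM (median 3.95) against 1.07 to 3.01 CPM (median 2.4), with a difference of 1.09 (SE 0.36, adjusted p = 0.082).

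Of 16 ion channel genes, 10 were lower and 0 higher in 6 of 6 hearts (median −1.28, sham −0.46, or −0.53 in MI hearts without hearts 2 and 3). Kcnd2 and Kcnip2, the pore and the auxiliary subunit of the transient outward potassium current, differed by −1.53 and −1.42, with median levels of 2.2 against 5.98 CPM and of 204 against 378 CPM, and by −0.79 and −0.65 without hearts 2 and 3. The inward rectifier Kcnj2 differed by −0.49 and was lower in 5 of 6 hearts. Between sham positions, Kcnj2 differed by −0.45, and the MI minus sham difference was −0.04 (SE 0.19). Kcnd2 and Kcnip2 differed by −0.43 and −0.23 between sham positions. Kcnv2, a silent subunit that modifies other potassium channels, was higher in 5 of 6 hearts (0.82, adjusted p = 0.0939).

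At the intercalated disc, 6 of 12 genes were lower in 6 of 6 hearts (median −0.77). Gja1, connexin 43 of the gap junction, was at 242 to 346 CPM (median 294) in the border zone and at 371 to 656 CPM (median 467) in the remote zone, without overlap (−0.73, SE 0.16, adjusted p = 0.0751). The same difference was measured between the positions of sham hearts (−0.73, adjusted p = 0.00132), where Gja1 fell from a median of 992 to 635 CPM. The difference between MI and sham hearts in this respect was 0 (SE 0.21). Ctnna3, an alpha-catenin of the cardiac disc, differed by −1.56 in MI hearts (−0.95 without hearts 2 and 3) and fell by 0.97 in sham hearts on the log2 scale.

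Transcription factors of the cardiomyocyte were lower as well, 11 of 18 in 6 of 6 hearts (median −1, or −0.46 without hearts 2 and 3). Tbx5, a T-box factor of the developing heart, was at 4.07 to 14.8 CPM (median 10.6) in the border zone and at 18 to 29.9 CPM (median 25.2) in the remote zone, with a difference of −1.44 (SE 0.30, adjusted p = 0.0751). It did not overlap between zones and fell by 0.75 on the log2 scale between the same positions of sham hearts. Gata4, the zinc finger factor, differed by −0.89 and Ppargc1a, the coactivator of mitochondrial biogenesis, by −1.47, or −0.69 without hearts 2 and 3. Klf15, a glucocorticoid-responsive regulator of metabolism, was lower in 4 of 6 hearts (−0.64, adjusted p = 0.24) and differed by −0.01 without hearts 2 and 3.

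**Figure D3:**
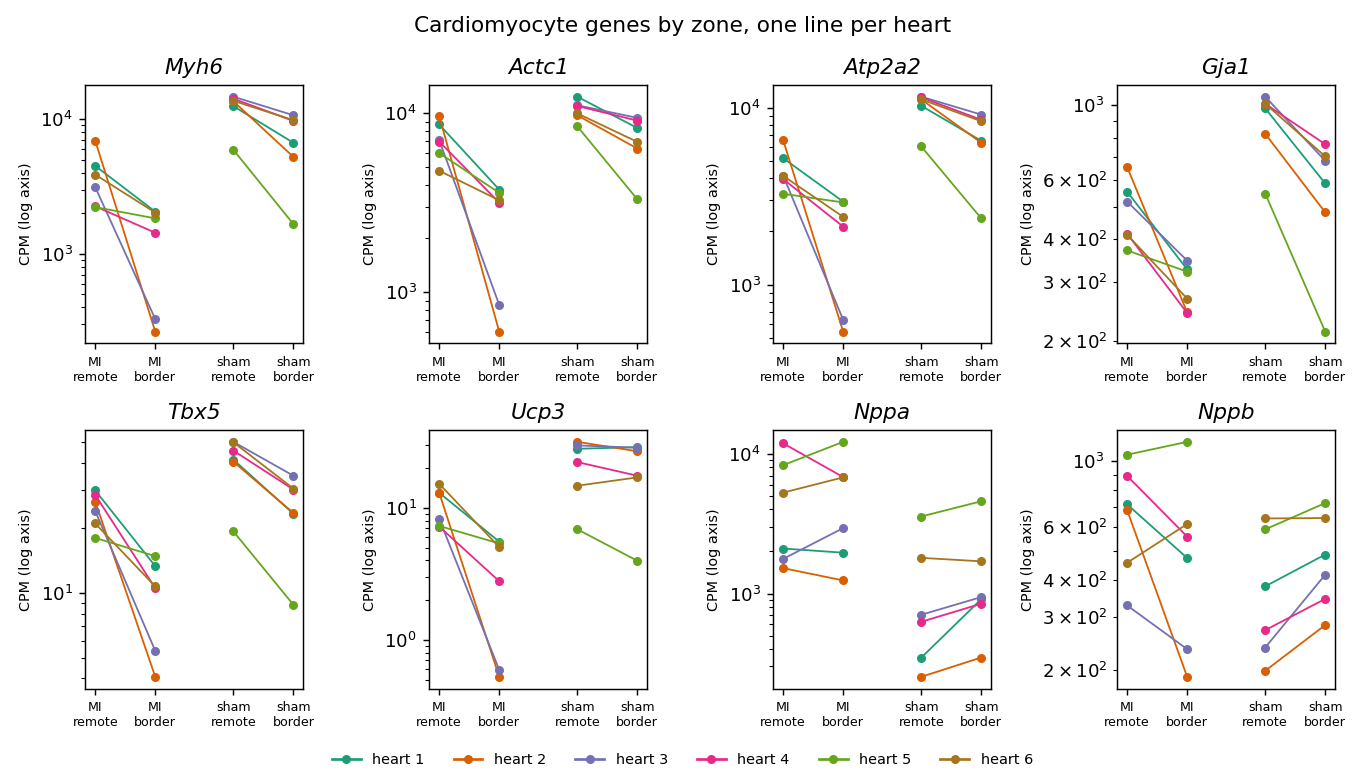
Levels of 8 cardiomyocyte genes in CPM on log axes, with 1 coloured line per heart from the remote to the border library, for 6 untreated MI and 6 sham hearts. Myh6, Actc1, Atp2a2, Gja1, Tbx5 and Ucp3 do not overlap between the zones of MI hearts, whereas Nppa and Nppb do.

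Genes of energy metabolism separated into those that differed between positions of sham hearts in the same direction and those that did not. In complex I of the respiratory chain, 19 of 37 genes were lower in 6 of 6 MI hearts (median −0.85), whereas the median between the sham positions was 0.40. For complexes II to V, 15 of 41 were lower in 6 of 6 MI hearts (median −0.75, sham 0.39). The difference between the MI and the sham contrast, tested as an interaction, had an unadjusted p under 0.05 and a negative sign in 35 of 37 and in 37 of 41 of these genes, beside 12.7% of all 16475 genes tested, and its medians were −1.17 and −1.03. No gene passed the adjusted threshold in this test (lowest adjusted p = 0.0636). Without MI hearts 2 and 3, the interaction medians were −0.70 and −0.55, and without sham heart 5 they were −1.24 and −1.12. For the sarcomere list, by comparison, the interaction median went from −0.92 to −0.16 without MI hearts 2 and 3.

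Cox7a2, a subunit of cytochrome c oxidase, was lower at the border of 6 of 6 MI hearts, at 68.5 to 258 CPM (median 163) against 223 to 354 CPM (median 282), and higher at the border position of 6 of 6 sham hearts, with medians of 334 against 177 CPM. The interaction was −1.69 (SE 0.36, adjusted p = 0.0636). Cox7b, another subunit of the oxidase, had medians of 105 and 189 CPM in MI hearts and of 230 and 113 CPM in sham hearts, with an interaction of −1.74 (SE 0.36, adjusted p = 0.0636). Ndufa4, a small subunit of the same enzyme that was first assigned to complex I, followed with −1.48 (SE 0.41, adjusted p = 0.0785). In all 3 genes, every MI heart lay below 0 and every sham heart above 0, and MI heart 5 was the closest to 0. The MI difference of Ndufa4 was −0.92, and −0.28 without hearts 2 and 3.

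Fatty acid oxidation and the creatine kinase system were lower in the MI border zone, and their list medians differed less between sham positions (−0.20 and −0.06). Of 27 fatty acid genes, 13 were lower in 6 of 6 MI hearts (median −0.94, or −0.37 without hearts 2 and 3). Cpt1b, which carries long-chain acyl groups into mitochondria, was at 25.1 to 179 CPM (median 134) against a lowest value of 214 CPM (median 226), without overlap (−1.56, SE 0.52, adjusted p = 0.082). Ucp3, an inner membrane carrier of the uncoupling protein family, was 4.02-fold lower, at 0.525 to 5.54 CPM (median 3.91) against 7.22 to 15.2 CPM (median 10.7), and differed by −2.01, or −1.17 without hearts 2 and 3. Pdk4, which blocks pyruvate oxidation, differed by −1.52, and the muscle creatine kinase Ckm by −1.65, while the fatty acid translocase Cd36 (−0.87), the oxygen store Mb (−1.15) and mitochondrial creatine kinase Ckmt2 (−1.19) were lower in 5 of 6 hearts, with heart 5 as the exception. Slc27a6, a fatty acid transporter, was the exception of the list and was higher in 5 of 6 hearts, at a median of 2.18 against 0.477 CPM (1.87, SE 0.53, adjusted p = 0.0751). With hearts 2 and 3 left out, the differences were −0.70 for Cpt1b, −0.73 for Pdk4, −0.75 for Ckm, −0.34 for Mb and −0.27 for Ckmt2. Single genes departed from the sham medians. Between sham positions, Cpt1b differed by −0.69, Pdk4 by −0.54, Ckm by −0.38 and Ucp3 by −0.17. Ckmt2 differed by 0.04, Cd36 by 0.20 and Mb by 0.29. Without MI hearts 2 and 3, the interaction was −0.01 for Cpt1b, −0.18 for Pdk4, −0.36 for Ckm and −0.99 for Ucp3.

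The TCA cycle and branched-chain and ketone oxidation list had 7 of 24 genes lower in 6 of 6 hearts (median −0.93, or −0.36 without hearts 2 and 3), among them Ogdh, a subunit of the oxoglutarate dehydrogenase complex, which did not overlap between zones (167 to 410 against 524 to 857 CPM). Of 24 genes of glucose uptake and glycolysis, 9 were lower and 2 higher in 6 of 6 hearts (median −0.30). The insulin-responsive glucose transporter Slc2a4 was lower in 5 of 6 hearts (−1.24) and the widely expressed hexokinase Hk1 in 6 of 6 (−0.66). Slc16a3, the MCT4 carrier that exports lactate, was higher in 6 of 6 hearts and without overlap, at 17.3 to 48.8 CPM (median 19.5) against 5.69 to 13 CPM (median 11), a difference of 1.20 (SE 0.35, adjusted p = 0.0752). Hk3, a hexokinase of myeloid cells, was higher in 6 of 6 hearts (2.10, adjusted p = 0.0751), by 4.80 in heart 2 and by 0.04 in heart 5. With hearts 2 and 3 left out, Hk3 differed by 1.36 and Slc2a4 by −0.34. The basal glucose transporter Slc2a1 was higher in 5 of 6 hearts (0.74, adjusted p = 0.146) and differed by 0.20 without hearts 2 and 3. Between sham positions, the list medians were −0.17 for the TCA list and −0.22 for glucose genes. Ogdh differed by −0.69 there, Hk1 by −0.59, Slc2a4 by −0.33, Slc2a1 by −0.13 and Slc16a3 by 0.08. The interaction was −0.06 for Hk1. For Ogdh it was −0.39, and 0.07 without MI hearts 2 and 3.

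Genes of the extracellular matrix were higher in the border zone. Of 8 fibrillar collagen genes, 6 were higher in 6 of 6 hearts (median 1.03, sham 0.23, or 0.60 in MI hearts without hearts 2 and 3). Col1a1, the main chain of scar collagen, was at 3230 to 12600 CPM (median 5730) in the border zone and at 949 to 5280 CPM (median 2840) in the remote zone. It was higher in every heart, by 1.77, 2.80 and 2.36 in hearts 1, 2 and 3 and by 0.17 to 0.57 in the others, and the fitted difference was 1.3 (SE 0.44, adjusted p = 0.0846). Both zones lay above the sham range of 529 to 1020 CPM in all but the lowest remote library. Col3a1 differed by 1.05, Col11a1, a collagen of fine fibrils, by 2.43 (5.13 to 222 against 0.303 to 52 CPM) and the fibril-associated collagens Col12a1 and Col16a1 by 1.78 and 1.55, all higher in 6 of 6 hearts. Col4a1 of the basement membrane differed by 0.20 (adjusted p = 0.522). Leaving out hearts 2 and 3 gave 0.66 for Col1a1, 1.01 for Col11a1, 0.72 for Col12a1 and 0.86 for Col16a1.

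Enzymes that process and crosslink collagen were higher in 6 of 6 hearts in 12 of 18 genes and lower in 1 (median 0.56), with Lox, the lysyl oxidase, at a median of 336 against 274 CPM (0.85, higher in 5 of 6 hearts). Of 20 matricellular genes, 10 were higher and 0 lower in 6 of 6 hearts (median 0.85, or 0.33 without hearts 2 and 3). Postn, periostin of activated fibroblasts, whose promoter is shown above, was at 541 to 3790 CPM (median 1850) against 172 to 1610 CPM (median 945), with a difference of 1.47 (SE 0.55, adjusted p = 0.0992) that ran from 0.14 in heart 6 to 4.14 in heart 2. Cthrc1, a secreted protein of scar fibroblasts, was 4.25-fold higher (median 200 against 59.9 CPM, higher in 6 of 6 hearts, adjusted p = 0.0752), and Ccn5, a member of the CCN family that lacks the terminal cystine knot domain, was 3.49-fold higher (median 277 against 84.5 CPM, 6 of 6 hearts). Spp1, osteopontin of macrophages, spanned 20 to 1590 CPM at the border and was higher in 5 of 6 hearts, by 8.08 in heart 2, with a value of −1.57 in heart 5. Leaving out hearts 2 and 3 gave differences of 0.66 for Postn, 1.28 for Cthrc1 (2.09 with all hearts), 1.08 for Ccn5 (1.80 with all hearts) and 0.95 for Spp1 (2.58 with all hearts).

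Fibronectin, proteoglycan and elastic fibre genes were higher in 6 of 6 hearts in 9 of 28 cases (median 0.51). Eln, elastin, differed evenly between hearts, by 0.46 to 1.58, at 497 to 1830 CPM (median 1060) against 305 to 932 CPM (median 497). Its difference of 0.96 (SE 0.17, adjusted p = 0.0751) did not rest on hearts 2 and 3, without which it was 1.11, and it rose by 0.46 on the log2 scale between the sham positions. Fn1, fibronectin, was higher in 6 of 6 hearts (1.07, median 1630 against 1080 CPM), whereas Dcn, decorin of resting fibroblasts, had medians of 1480 and 1420 CPM (0.14, adjusted p = 0.498). Among proteases and inhibitors, 9 of 31 were higher and 2 lower in 6 of 6 hearts. Mmp14, a membrane-bound collagenase, was higher in 6 of 6 hearts (1.28), Mmp12 of macrophages by 2.49 with heart 5 as the exception, and Timp4, the inhibitor expressed in cardiac muscle, by −1.11. Leaving out hearts 2 and 3 gave 0.61 for Mmp14, 1.03 for Mmp12 and −0.38 for Timp4.

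Of 26 genes of the TGF-beta and BMP system, 7 were higher and 0 lower in 6 of 6 hearts (median 0.19). Id3, an inhibitor of helix-loop-helix factors that BMP signals induce, was the most even of those named. It was at 145 to 226 CPM (median 200) in the border zone and at 82.2 to 137 CPM (median 107) in the remote zone, without overlap, with within-heart differences of 0.54 to 1.3 (0.84, SE 0.12, adjusted p = 0.0751) and a rise of 0.52 between sham positions. The BMP antagonist Grem1 was higher in 6 of 6 hearts, at 2.06 to 24 CPM (median 5.28) against 0.691 to 2.61 CPM (median 0.941), with a difference of 2.42 (SE 0.51, adjusted p = 0.0751), or 1.60 without hearts 2 and 3. The activin antagonist Fst (1.62) and the latent TGF-beta binding protein Ltbp2 (1.16) were higher in 6 of 6 hearts. Tgfb3, a ligand of the family, had medians of 182 and 149 CPM (0.31, adjusted p = 0.117).

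Fibroblast identity and activation differed unequally. Pdgfra, a surface receptor of fibroblasts, had medians of 219 and 186 CPM (0.36, adjusted p = 0.178), whereas 8 of the 23 genes of the fibroblast and myofibroblast list were higher in 6 of 6 hearts and 0 lower (median 0.62). The summed level of 4 fibroblast markers (Pdgfra, Tcf21, Dcn and Col1a1) was 4940 to 14400 CPM at the border and 2310 to 6870 CPM in the remote zone. This sum includes the scar collagen gene Col1a1, which differed by 1.3, against 0.14 for Dcn and 0.36 for Pdgfra. It therefore cannot tell more fibroblasts from more Col1a1. Acta2, smooth muscle alpha-actin and the label of myofibroblasts, was at 60.4 to 463 CPM (median 269) against 57.5 to 156 CPM (median 114). It was higher in every heart, by 0.07 in heart 1 and 0.08 in heart 5 and by 0.80 to 2.71 in the others (1.07, SE 0.37, adjusted p = 0.087). Between the positions of sham hearts, Acta2 fell by 0.53 on the log2 scale, from a median of 43.9 to 32.5 CPM. The actin-associated genes Tagln (1.47) and Lmod1 (1.07) were likewise higher in 6 of 6 MI hearts. Without MI hearts 2 and 3, Acta2 differed by 0.45 and Tagln by 0.71.

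In the mural and smooth muscle list, 4 of 16 genes were higher and 2 lower in 6 of 6 hearts (median 0.18, sham −0.36). Myh11, smooth muscle myosin, was higher in 5 of 6 MI hearts (0.52, median 52.1 against 30.9 CPM) and fell by 0.64 between sham positions. The receptor Pdgfrb of mural cells and fibroblasts was higher in 6 of 6 MI hearts (0.61), and Rgs5, a pericyte marker, was lower in 6 of 6 (−0.31, adjusted p = 0.11).

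Genes of blood vessel endothelium were mostly lower at the border, 7 of 19 in 6 of 6 hearts, with 1 higher (median −0.37, sham −0.12). Pecam1, the adhesion molecule CD31, was at 195 to 309 CPM (median 267) against 271 to 484 CPM (median 387). It was lower in 6 of 6 hearts (−0.60, SE 0.17, adjusted p = 0.0751). The VEGF receptor Kdr did not overlap between zones (−0.79, median 122 against 174 CPM). Without hearts 2 and 3, Pecam1 differed by −0.36 and Kdr by −0.43. Between sham positions, Pecam1 differed by −0.17 and Kdr by −0.44. Cldn5, the claudin of endothelial tight junctions, was the gene of the list that was higher in 6 of 6 hearts (0.78, SE 0.17, median 79.7 against 46.9 CPM, adjusted p = 0.0751). The ligands Vegfb (−0.98) and Vegfa (−0.66) were lower in 6 and in 5 of 6 hearts. Hey2, a Notch target of arterial endothelium and ventricular muscle, was lower in 6 of 6 without overlap (−0.97). Without hearts 2 and 3, the differences were −0.61 for Vegfb, −0.22 for Vegfa and −0.62 for Hey2. Between sham positions, they were −0.39, −0.25 and −0.17. Angptl4, a secreted lipase inhibitor, was 4.16-fold higher (median 31.6 against 9.08 CPM, 5 of 6 hearts), a difference of 2.06 that was 1.13 without hearts 2 and 3.

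Lymphatic genes were few and uneven. Ccl21, the chemokine of lymphatic endothelium, was at 131 to 338 CPM (median 209) against 38.5 to 158 CPM (median 61.3) and was higher in 5 of 6 hearts (1.56, SE 0.42, adjusted p = 0.0751), whereas the hyaluronan receptor Lyve1, which macrophages share, differed by 0.31 (adjusted p = 0.359).

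Macrophage genes were higher in the border zone of 5 hearts and not in heart 5. The list median within hearts was 0.42 to 2.32 in hearts 1, 2, 3, 4 and 6 and −0.33 in heart 5. Only 4 of 31 genes were higher in 6 of 6 hearts, close to the share of all genes (12.2%). In the fit without the block, 21 of 31 were called higher, beside 12.1% of all genes. Between sham positions, the list median was 0.39. The interaction median was 0.67, and 0.22 without MI hearts 2 and 3. In MI hearts, the summed level of Cd68, Csf1r and C1qa was 468 to 1080 CPM (median 729) at the border and 219 to 471 CPM (median 351) in the remote zone. C1qa, a complement subunit made by resident macrophages, was higher in 6 of 6 hearts and without overlap, at 229 to 675 CPM (median 331) against 93 to 195 CPM (median 139), a difference of 1.28 (SE 0.34, adjusted p = 0.0751) that was 0.88 without hearts 2 and 3. The lysosomal marker Cd68 was higher in 5 of 6 hearts (1.42, adjusted p = 0.0831), with a value of −0.84 in heart 5. Without hearts 2 and 3, Cd68 differed by 0.82. The growth factor receptor Csf1r differed by 0.78. Between sham positions, C1qa differed by 0.68, Csf1r by 0.22 and Cd68 by 0.02.

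Apoe, an apolipoprotein that macrophages secrete, was at 1980 to 8700 CPM (median 5200) in the border zone and at 193 to 3210 CPM (median 936) in the remote zone, higher in 6 of 6 hearts by 0.13 in heart 5 and up to 5.50 in heart 2 (2.32, SE 0.69, adjusted p = 0.0758). The lipid receptor Trem2 (1.68), the lysosomal glycoprotein Gpnmb (2.21) and the galectin Lgals3 (1.73) were higher in 5 of 6 hearts, with −0.12, −0.62 and −0.49 in heart 5. Leaving out hearts 2 and 3 gave 1.47 for Apoe, 1.05 for Trem2, 1.12 for Gpnmb and 0.94 for Lgals3. Between sham positions, Apoe and Lgals3 each differed by 0.55, Trem2 by 0.59 and Gpnmb by 0.44. Cd163, the haptoglobin-haemoglobin receptor of resident macrophages, had medians of 56.4 and 60.7 CPM and was higher in 3 and lower in 3 hearts (0.01, adjusted p = 0.989). Lst1, a leukocyte transcript of the MHC region, was among the most even of the immune genes named. It was at 2.21 to 9.19 CPM (median 4.77) against 0.865 to 1.29 CPM (median 1.01) without overlap, higher by 1.26 to 2.74 in the 6 hearts (2.08, SE 0.27, adjusted p = 0.0751).

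Neutrophil genes differed mainly in hearts 2 and 3. The list median over 9 genes was 3.35 and 3.3 in these hearts and −0.96 to 0.77 in the others, and it went from 1.29 to 0.01 without them. S100a8, an alarmin of neutrophils, was at 1.66 to 75.8 CPM (median 11.7) against 1.07 to 14.3 CPM (median 4.71), with a difference of 1.5 (SE 0.61, adjusted p = 0.118) that was 0.34 without hearts 2 and 3. The T and NK cell list was low in these athymic animals. Cd3e, the invariant chain of the T cell receptor complex, was at 1.01 to 7.17 CPM (median 3.95) at the border. In the remote zone, Cd3e was at 0.804 to 2.14 CPM (median 1.27). It was higher at the border in 6 of 6 hearts (1.31, SE 0.39, adjusted p = 0.0758). In the list, 4 of 19 genes were higher in 6 of 6 hearts (median 0.69, sham 0.45). Of 14 MHC class II and dendritic cell genes, 8 were higher in 6 of 6 hearts (median 1.00, sham 0.18, or 0.70 in MI hearts without hearts 2 and 3). RT1-Db1, a class II beta chain that may share reads with near-identical RT1 genes, did not overlap between zones (127 to 511 against 71.3 to 107 CPM, difference 1.25, adjusted p = 0.0751), whereas the invariant chain Cd74 differed by 0.37 (adjusted p = 0.266).

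Among secreted immune mediators, 5 of 26 chemokine genes were higher and 1 lower in 6 of 6 hearts (median 0.73, or 0.27 without hearts 2 and 3). Ccl2, which recruits monocytes, had medians of 67.2 and 36.8 CPM (0.75, higher in 6 of 6), and Ccl9 had 3.79 and 0.633 CPM (2.31, or 1.31 without hearts 2 and 3, 6 of 6). Ccl2 differed by 0.34 without hearts 2 and 3. Between sham positions it rose by 0.60 on the log2 scale, in 6 of 6 sham hearts, and its interaction was 0.16 (SE 0.30). Of 17 complement genes, 3 were higher in 6 of 6 hearts (median 0.86), with Cfd, complement factor D, at 1.53 in 4 of 6 hearts and C3 at 1.10 (adjusted p = 0.359), of which the single hearts ran from −1.04 to 4.41. Of 21 cytokine genes, 2 were higher in 6 of 6 hearts (median 0.63), and Il1rl1, the IL-33 receptor, was higher in 5 of 6 (1.32). Interferon-stimulated genes had a median of 0.30 with 2 of 24 higher and 1 lower in 6 of 6 hearts. Of all genes tested, 12.2% were higher in 6 of 6 hearts, and the cytokine and interferon-stimulated lists lay below this share. The sham medians were 0.23 for chemokine, 0.24 for complement, 0.12 for cytokine and 0.16 for interferon-stimulated genes.

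**Figure D4:**
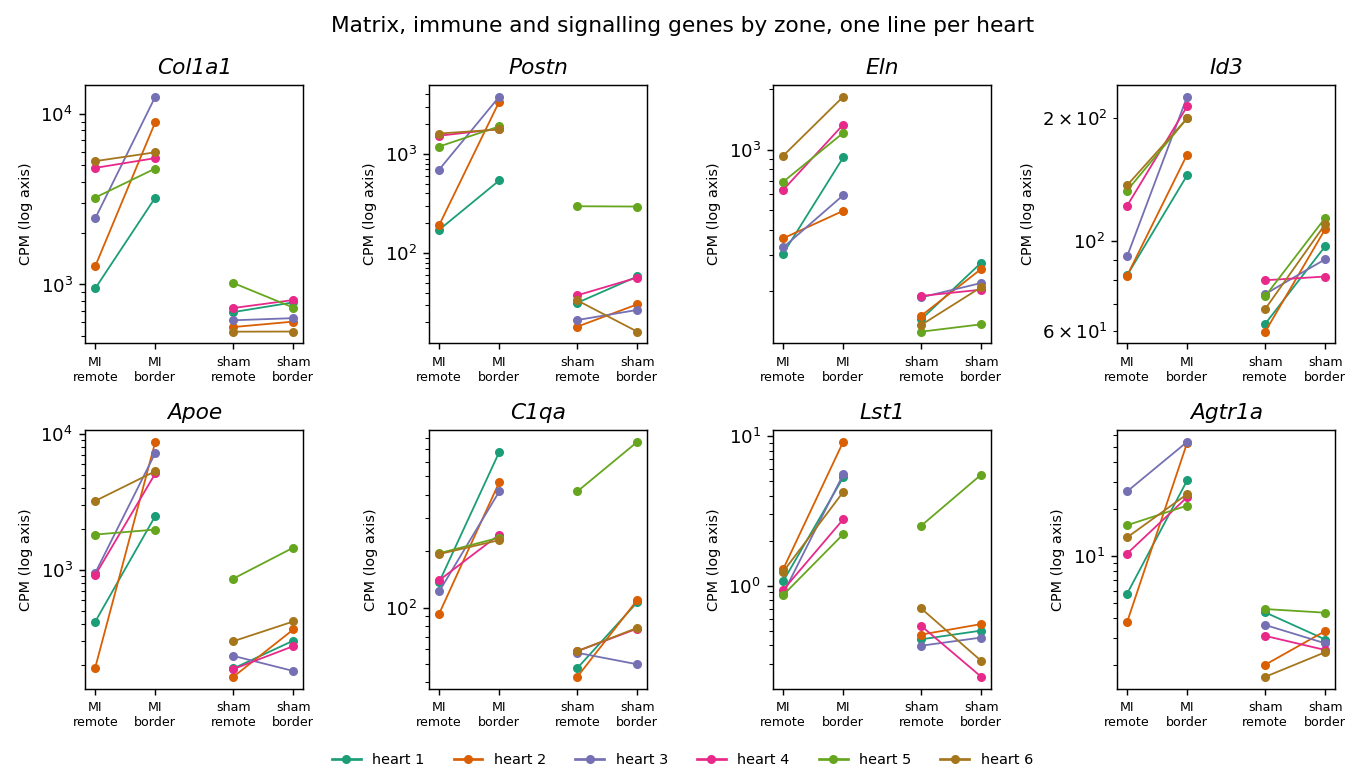
Levels of 8 matrix, immune and signalling genes in CPM on log axes, with 1 coloured line per heart from the remote to the border library, for 6 untreated MI and 6 sham hearts. All 8 are higher at the border in 6 of 6 MI hearts, Eln, Id3 and Lst1 with the most even slopes, and sham heart 5 lies above the other sham hearts for Postn, Apoe, C1qa and Lst1.

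Signalling genes outside these groups were also looked at. Agtr1a, the type 1 angiotensin receptor, was higher at the border in 6 of 6 hearts, at 21.1 to 54 CPM (median 27.8) against 3.79 to 26 CPM (median 11.8), a difference of 1.56 (SE 0.42, adjusted p = 0.0751) that was 1.20 without hearts 2 and 3 and −0.05 between sham positions. Ace, which makes angiotensin II, was higher in 6 of 6 hearts (0.41, median 41.9 against 29.9 CPM). The 9 genes that the study names, which were chosen on these samples and are not independent evidence, had a median of 0.85 with 4 higher in 6 of 6 hearts. Igf1, a growth factor of macrophages and fibroblasts, was higher in 5 of 6 hearts (0.82), whereas Igf2 was lower in 6 of 6, at 15 to 40.3 CPM (median 30.3) against 33.4 to 96.1 CPM (median 54.2), with −0.91 (SE 0.24, adjusted p = 0.0751).

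Several cell state lists were centred near the median of all genes. The median was 0.04 over 30 proliferation genes, with 0 higher and 1 lower in 6 of 6 hearts and Mki67, the nuclear antigen of cycling cells, at 63.3 against 65.5 CPM (−0.21, adjusted p = 0.42). The median was 0.03 over 17 hypoxia response genes and 0.15 over 24 immediate early and AP-1 genes. The 21 heat shock and unfolded protein genes had a median of 0.01, but 6 were higher and 5 lower in 6 of 6 hearts. The small heat shock proteins of muscle, Hspb6 (−1.82, 77.3 to 496 against 697 to 1350 CPM, no overlap, adjusted p = 0.0751) and Cryab (−1.53), were among the lower ones, with −1.09 and −0.79 when hearts 2 and 3 were left out. Cytosolic ribosomal protein genes had a median of 0.31, with 14 of 45 higher and 1 lower in 6 of 6 hearts, and one of 0.48 between sham positions.

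Red blood cell genes were lower in the MI border zone (median −0.77 over 7 genes, sham 0.46). Hba-a3, an alpha-globin gene, was at 0.956 to 5.31 CPM (median 2.67) against 6.24 to 18.3 CPM (median 9.55), lower in 6 of 6 hearts, with values of −2.59 to −1.09, without overlap (−1.86, SE 0.21, adjusted p = 0.0751). Hba-a2 differed by −1.44 (SE 0.20) in the same hearts. Alpha-globin copies are near-identical, so their counts are uncertain as to the copy. The summed level of the markers Hba-a1, Hbb and Alas2 was 676 to 2220 CPM at the border and 1730 to 4980 CPM in the remote zone. Epicardial and mesothelial genes had a median of 0.10 in MI and of 0.73 in sham hearts, with a spread between single sham hearts from −1.21 to 4.77, and 0 of 12 were higher in 6 of 6 MI hearts. Skeletal muscle myosins (Myh1, Myh2 and Myh4) summed to at most 0.771 CPM in the 12 libraries, and adipocyte markers to at most 26.5 CPM, in the border zone of heart 1.

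Genes with the largest differences were listed by size among those called without the block that moved the same way in 6 of 6 hearts (2135 genes, besides 114 named only by a database identifier). On the higher side stood Crocc2, a relative of the ciliary rootlet protein (3.24, SE 0.52, median 3.61 against 0.281 CPM), Podnl1 of the small leucine-rich proteoglycans (3.24, SE 1.07), the homeobox gene Gbx2 (2.55), Clec2dl1, a C-type lectin-like gene (2.49), the immunoglobulin superfamily member Igsf7 (2.46), Grem1, Apoe and Ccl9, the protease inhibitor A2m (2.3) and the MyoD family inhibitor Mdfi (2.15). Crocc2 was higher by 0.77 in heart 6 and by 2.44 to 4.22 in the other hearts. Several of these differences rested on hearts 2 and 3. When both were left out, Crocc2 differed by 2.65, Podnl1 by 1.61, Gbx2 by 1.3, Clec2dl1 by 0.96, Igsf7 by 1.56, Grem1 by 1.6, Apoe by 1.47, Ccl9 by 1.31, A2m by 0.99 and Mdfi by 1.36.

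On the lower side stood the atrial myosin light chain Myl7 (−3.03, SE 0.74), the tRNA genes Trnl1 (−2.09) and Trnp (−1.80), Ucp3, the extracellular matrix protein Frem2 (−1.87), Hba-a3, the neurotrophic factor Cdnf (−1.84), Hspb6 and the kinases Alpk2 (−1.79) and Wnk2 (−1.77). Myl7 was at 0.0911 to 1.4 CPM at the border and at 1.45 to 62.5 CPM in the remote zone, with its highest level in the remote zone of heart 1 that also held the other atrial genes. Trnp, at 39.1 to 147 CPM (median 70.1) against 139 to 378 CPM (median 248), differed by −3.01 to −1.09 in the single hearts. When hearts 2 and 3 were left out, Trnl1 differed by −1.44, Trnp by −1.31, Ucp3 by −1.17, Frem2 by −1.24, Cdnf by −0.84, Hspb6 by −1.09, Alpk2 by −1.03 and Wnk2 by −0.87. Between sham positions, Alpk2 differed by −1.01, Wnk2 by −0.91, Frem2 by −0.89, Trnl1 by −0.80, Hspb6 by −0.61 and Cdnf by −0.56. Trnp differed by −0.33, Ucp3 by −0.17 and Hba-a3 by 0.20. Without MI hearts 2 and 3, the interaction was −0.02 for Alpk2, 0.05 for Wnk2 and −0.31 for Frem2, but −0.98 for Trnp and −1.84 for Hba-a3. These genes were chosen by their size and are a description.

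Whether the zone difference of MI hearts was that of the position was examined in sham hearts. There, 1919 of 15074 genes (12.7%) rose and 1961 (13%) fell from the septal to the lateral position at an adjusted p under 0.05 (edgeR with the heart as a block), and 119 of all genes tested differed by over 1 on the log2 scale, whether or not they passed. Sham hearts differed in the same direction as MI hearts for sarcomere (median −0.50), intercalated disc (−0.54) and cardiac transcription factor genes (−0.42). The same held for calcium handling (−0.40), ion channel (−0.46) and macrophage genes (0.39). Without MI hearts 2 and 3, the interaction medians were −0.03 for calcium handling and −0.07 for ion channels, against −0.69 and −0.79 with all hearts. Myh6 fell by 0.93 on the log2 scale between sham positions. Tnni3, in contrast, rose by 0.52 between sham positions. In the direct test of MI against sham differences, 1900 genes (11.5%) were higher and 2095 (12.7%) lower at an unadjusted p under 0.05, and none passed the adjusted threshold in edgeR, whereas DESeq2 called 1475 (578 higher, 897 lower). The within-heart differences of all 6 MI hearts lay above those of all 6 sham hearts in 228 genes (1.38%) and below them in 415 (2.52%).

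By size of this interaction among genes without overlap (215 higher and 369 lower at an unadjusted p under 0.05), the higher side held Lst1 (2.00, SE 0.45), the plasma protein gene Hp (1.91), the carboxypeptidase Cpz (1.80), Acta2 (1.60), Lmod1 (1.49), Tagln (1.45), the palmitoyltransferase Zdhhc23 (1.40) and the Wnt inhibitor Nkd1 (1.32). Nkd1 was higher at the border of 6 of 6 MI hearts, at 5.43 to 11.3 CPM (median 9.25) against 2.61 to 6.55 CPM (median 5.15), and had medians of 1.55 and 1.98 CPM at the border and remote positions of sham hearts (interaction SE 0.26, adjusted p = 0.0636). Acta2 and Lmod1 were higher at the border in every MI heart and lower in every sham heart. Fn1 (1.25) and Agtr1a (1.60) had interactions with adjusted p-values of 0.0864 and 0.102.

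The lower side held Hba-a3 (−2.05, SE 0.32, adjusted p = 0.0636), the granzyme gene Gzmc (−1.90), the mucin Muc19 (−1.89), the pseudogene Uqcrb-ps1 (−1.85), whose counts may come from its parent gene, the steroid side-chain cleavage enzyme Cyp11a1 (−1.81), Hba-a2 (−1.81), the sarcoplasmic reticulum protein Dhrs7c (−1.79) and Pgpep1l (−1.75). Gzmc and Cyp11a1 were lower at the border in 6 of 6 MI hearts and higher in 6 of 6 sham hearts. Gzmc was at 1.22 to 5.73 CPM (median 4.77) against 6.66 to 16.6 CPM (median 9.3) in MI hearts and had medians of 16.2 and 10.6 CPM in sham hearts. Each of these interactions on either side kept its sign without sham heart 5 and without MI hearts 2 and 3. As the genes were chosen for no overlap between MI and sham differences, this follows from the choice and is no further support.

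**Figure D5:**
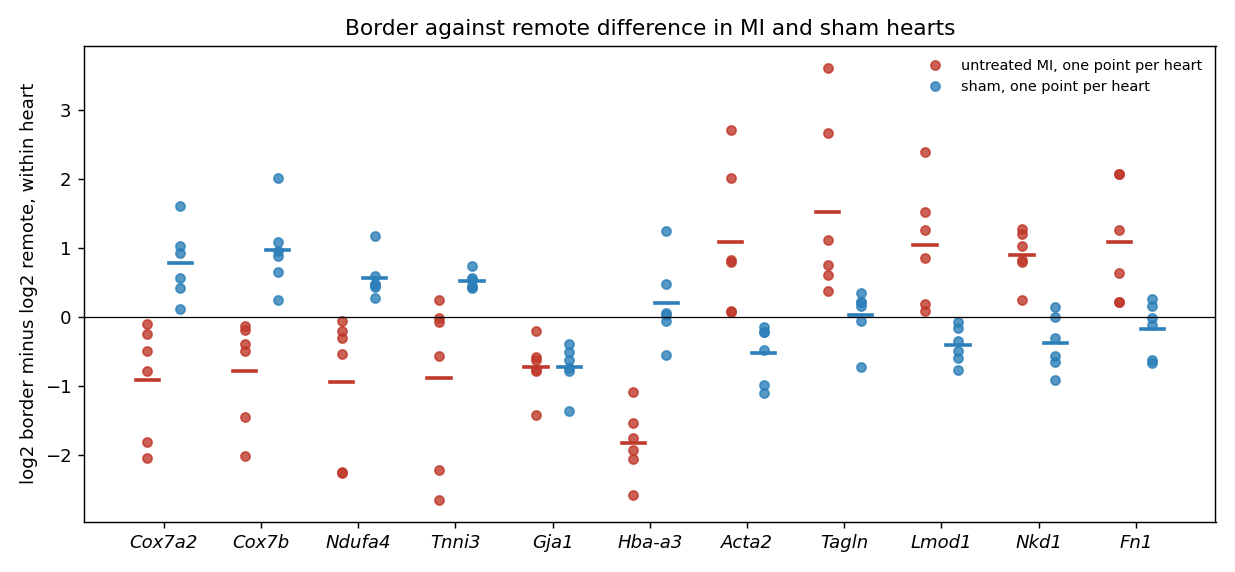
Within-heart differences, log2 border minus log2 remote CPM, of 11 genes in 6 untreated MI hearts (red) and 6 sham hearts (blue), with bars at the mean. Cox7a2, Cox7b and Ndufa4 are below 0 in every MI heart and above 0 in every sham heart, Acta2 and Lmod1 the reverse, and Gja1 overlaps at −0.73 in both.

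The border zone was also set beside the infarct zone of the same hearts, which shares the border zone libraries with the comparison above. No gene of 16142 passed the adjusted threshold (edgeR, lowest adjusted p = 0.887), and DESeq2 also called 0. At an unadjusted p under 0.05 there were 882 genes (5.46%), and 148 differed by over 1 on the log2 scale. Myh6 had medians of 1630 CPM at the border and 711 CPM in the infarct zone. Its border minus infarct difference was 0.78 (SE 0.75), and it was higher at the border in 4 of 6 hearts. Col1a1 had medians of 5730 and 8630 CPM (−0.27, SE 0.30). The 5 cardiomyocyte markers summed to less at the border than in the infarct zone of heart 1 (16300 against 21000 CPM) and heart 3 (3370 against 13100 CPM). In hearts 2, 4, 5 and 6 they summed to more at the border.

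Of genes with an unadjusted p under 0.05 and the same direction in 6 of 6 hearts, 115 were higher and 202 lower at the border than in the infarct zone. Among all 16142 genes tested, 5.46% had an unadjusted p under 0.05, which is close to the share that chance alone gives at this threshold. The genes picked by size are therefore named as a description only. The largest on the higher side were the interferon-induced Ifit1bl (1.47) and Ifit3 (1.10) and the transferrin receptor Tfrc (1.04), and on the lower side the claudin Cldn4 (−1.75), the secreted proteins Scube3 (−1.21) and Angptl7 (−1.16) and the neuropeptide Npy (−1.07). Ifit3 was at 9.97 to 106 CPM (median 19.6) in the border zone and at 7.79 to 19.1 CPM (median 8.87) in the infarct zone. In the mural and smooth muscle list, 7 of 16 genes had an unadjusted p under 0.05 in this comparison, and the list median was −0.27. Myh11 had medians of 52.1 CPM at the border and 79.5 CPM in the infarct zone (−0.82), Acta2 of 269 and 382 CPM (−0.66), and Rgs5 of 121 and 106 CPM (0.21).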

How the data were processed

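RNA was sequenced from left ventricular zones (poly-A libraries, paired-end reads), and the authors deposited raw counts per gene for each library. According to the study's methods, reads were aligned with STAR to mRatBN7.2 with RefSeq annotation and tested with DESeq2. How reads were counted per gene, and whether by strand, is not given in the sources used here, so overlapping genes and near-identical copies cannot be told apart. The tables held 40319 genes, and 5 summary lines per library were dropped before library totals were taken.

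Counts were filtered (edgeR's filterByExpr), TMM-normalised and tested with edgeR 4.0.16 (quasi-likelihood F-test, R 4.3.3) with the heart as a block, because both zones came from the same animal. Benjamini-Hochberg adjustment ran over all genes tested at a threshold of 0.05. The block left 5 residual degrees of freedom. The deviations of same-numbered libraries from their group means correlated at 0.37, −0.21, 0.03, 0.17, −0.13 and 0.06 in hearts 1 to 6, and 2 of 6 hearts matched their own pair best. Alternatives were DESeq2 1.42.0, limma 3.58.1 (voom), no block, other filters and scalings, thinning, all 54 libraries together and leaving out hearts. Levels are CPM, and single-heart log2 differences used an offset of 0.1. The share on no gene was tested by exact enumeration of 64 sign flips. The pipeline was tested on simulated data. Within each of the 5 groups used here, no pair of libraries agreed within sampling noise.

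The members and gene lists were chosen with earlier results of these data known. Genes with the largest differences were named by size among those with a mean log2 CPM of at least 1 that had the same direction in every heart. As none passed with the block, the adjusted p of the fit without it was used. Genes of the interaction and of the infarct comparison were named in the same way at an unadjusted p under 0.05, and all other genes come from the lists. A list of mitochondrially encoded mRNAs, had no member tested.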

Additional observations from a re-analysis of the deposited data

Results flagged for a closer look

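Among 154 named genes, the level of 1 library stood far from the other 5 of its group in 7 of 310 groups, where chance gives about 1 in 20. In the border zone of heart 1, Col4a1 was at 483 CPM (1120 to 1380 in the other hearts), Ltbp2 at 63.7 CPM (322 to 548) and Cd163 at 183 CPM (38.1 to 60.6). In the remote zone, Slc27a6 was at 1.3 CPM in heart 6 (0.441 to 0.669 in the others), Hp at 1.89 CPM in heart 6 (0.767 to 1.07), Ccl2 at 73.3 CPM in heart 5 (29.9 to 41.6) and Npy at 0.669 CPM in heart 4 (2.4 to 4.89).

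In 7 named genes, every MI heart differed between zones in one direction and every sham heart in the other. The MI minus sham difference on the log2 scale was −1.69 for Cox7a2, −1.74 for Cox7b and −1.48 for Ndufa4 of cytochrome c oxidase, −1.81 for Cyp11a1, −1.9 for Gzmc, 1.6 for Acta2 and 1.49 for Lmod1. In edgeR's test of the interaction, none of the 7 passed an adjusted p of 0.05. Acta2, Lmod1, Cyp11a1 and Gzmc also stood among the genes listed above for no overlap between MI and sham differences. That choice favours opposite directions, so their place here is no further support. The share of all genes with opposite directions was not counted.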

How the results depend on the processing

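The number of genes called between border and remote zone differed between the fits and thresholds. With the heart as a block, edgeR called 0 genes with other filters, without TMM scaling, after thinning, in voom and without any single heart (0 to 0). DESeq2 with the same block called 4651, edgeR with no replicate block 3409, a fit of all 54 libraries 5493, and the block at an adjusted p under 0.10, which was chosen after seeing the data, 4620. For the difference between MI and sham hearts, DESeq2 called 1475, the threshold of 0.10 gave 1121 and leaving out MI hearts 2 and 3 gave 89. Single hearts left out gave 0 to 1539, the last without MI heart 5, and leaving out any single sham heart gave 0. No alternative called a gene between border and infarct zone. Leaving out single hearts, the share on no gene differed by −14.3 to −10.8 percentage points, with the exact p at 0.0625, the smallest that 5 hearts allow. Genes higher in every heart numbered 2031 to 3248 and lower ones 1970 to 3152, the highest counts without heart 5.

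Among named genes, Nppa ran from −0.05 to 0.25 when single hearts were left out, and was −0.05 without heart 3 and −0.03 without heart 5. Cd163 ran from −0.29 to 0.17, with −0.29 without heart 1, −0.07 without heart 2 and −0.03 without heart 6, and was 0 in DESeq2 and after thinning. The border minus remote differences of Ifit1bl and Ifit3, both 0.66 with all hearts, were −0.1 and −0.05 without hearts 2 and 3. Their border minus infarct differences were not fitted without these 2 hearts. The cause was not tested. The number of hearts and low counts limit what can be told for genes near 1 CPM.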
